A study of Mus musculus with 4 samples.

Results

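The miRNAs described here are the mouse miR-5097 to miR-5710 annotation block, late entries of the miRNA database miRBase, which numbers mature miRNAs in the order in which they are registered. Members were chosen by identifier alone, as every probe whose first miRBase accession lies between MIMAT0020600 and MIMAT0022999. This rule took 96 of 1265 probes. Cell-free miRNAs (cf-miRNAs) were measured in the plasma of 2 young (6 to 7 weeks) and 2 aged (23 to 24 months) male C57BL6/J mice, with 1 single-colour 3D-Gene mouse miRNA chip per mouse. The mice carried no transgene and received no treatment that the sample labels or the methods for plasma name, and blood was drawn by cardiac puncture into EDTA. Each deposited value is a linear signal intensity, with a blank where an array lists no value for a probe. Of the 96 members, 3 could be named, as miR-5129-5p, miR-5620-5p and miR-5621-5p, because the signals printed for them in the study match 1 probe each. The other 93 are given by accession, since no file used here pairs the accessions with names.

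A miRNA is cut from a hairpin transcript, loaded into the silencing complex, and guides that complex to messenger RNAs that pair with its seed, the bases 2 to 8 from its 5′ end. In blood, miRNAs persist outside cells within vesicles or bound to protein. Many late-numbered mouse miRNAs came from deep sequencing, have no clear relative in other mammals, and have no established function. The age difference of a plasma miRNA does not separate release from more cells from more release per cell.

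Facts of the whole arrays bear on every value below. Of all probes, 439 to 620 were listed per array, and the shortest list belonged to young mouse 2. On every array the listed values have a median of 25, and miRNAs listed on all 4 arrays had medians of 67.9 (young mouse 1), 35.2 (young mouse 2), 62.1 (aged mouse 1) and 56.0 (aged mouse 2). The lowest listed signals were 7.0 to 9.5. Of a list of 10 markers of other sources of plasma RNA, 3 could be matched to a probe. The muscle markers miR-1a-3p and miR-133a-3p had signals of 156 to 525 in young and 56.8 to 159 in aged plasma, and the myeloid marker miR-223-3p had 141 to 269 in young and 430 to 499 in aged plasma. Their part in the values of the members was not tested, and the red blood cell, liver and endothelial markers were not analysed here.

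The 3 named members are the ones whose sequences could be tied to a signal. Their mature sequences, from RefSeq on build GRCm38.p6, are shown 5′ to 3′ with the seed in capitals.
miR-5129-5p: aUGUGGGGgcauugguauuuuc
miR-5620-5p: aCGAGGCAggggcuuugacugug
miR-5621-5p: aGGAGGUCcuggggccgcccuga
The 3 seeds differ from each other. In the reference table the seed of miR-5620-5p was shared with 1 other mature mouse miRNA, miR-7689-5p, and those of miR-5129-5p and miR-5621-5p with none. The longest stretch that any pair of the 3 had in common was 5 bases. All 3 are rich in G, at 36.4% of bases in miR-5129-5p and 43.5% in both miR-5620-5p and miR-5621-5p. Each holds a run of G, of 5 bases in miR-5129-5p, where it lies partly in the seed, and of 4 bases in the other two.

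The hairpins place these sequences. They are shown with the mature miRNA in capitals.
Mir5129: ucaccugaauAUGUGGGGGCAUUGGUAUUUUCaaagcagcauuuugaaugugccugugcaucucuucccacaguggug
Mir5620: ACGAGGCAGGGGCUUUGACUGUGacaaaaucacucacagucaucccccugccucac
Mir5621: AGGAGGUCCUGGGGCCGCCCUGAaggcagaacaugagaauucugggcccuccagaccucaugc
Mir5129 lies at chr2:45023100-45023177 on the minus strand, within the span of Zeb2, a zinc finger transcription factor. Mir5620 lies at chr7:7298891-7298946 on the plus strand, within the span of Clcn4, a chloride and proton exchanger. Mir5621 lies at chr11:115795824-115795886 on the plus strand, within the span of Tmem94, which encodes a membrane protein. The table used gives gene spans without exons, so exonic and intronic positions were not told apart. All 3 mature miRNAs come from the 5′ arm of their hairpin, and in Mir5620 and Mir5621 the mature sequence starts at the first base of the hairpin.

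Reference miRNAs with names from miR-5097 to miR-5136 and miR-5615 to miR-5710, the name ranges of the block, were described beside these 3. The table held 60 such mature miRNAs, with the 3 among them, whereas the block holds 96 probes chosen by accession. Apart from the 3, these miRNAs cannot be tied to single probes, so their composition is not that of the members. Their median G content was 31.7% against 26.1% for the 1619 other mature mouse miRNAs. The letters GGGG, read on the strand of the miRNA, occurred in 9 of 60 (15.0%), and in 179 of 1619 others (11.1%). A seed shared with another mature mouse miRNA was held by 9 of the 60 (15.0%) and by 459 of the 1619 (28.4%). These are descriptions of the reference table and were not tested.

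Members were listed slightly more often than other miRNAs on each array. On single arrays, young mice 1 and 2 had 51 and 39 members listed and aged mice 1 and 2 had 49 and 50, or 40.6% to 53.1% of 96. For the 1169 other miRNAs these shares were 34.2% to 48.7%. Both groups had their lowest share on young mouse 2, and the 2 ages overlapped. A value on all 4 arrays was present for 34 members (35.4%) and 328 others (28.1%), and a value on none for 31 members (32.3%) and 416 others (35.6%).

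By accession the block holds a dense first run, a dense second run, and 21 scattered later accessions, called the third run here although it has wide gaps of its own. These runs were defined after the values were seen. In the first run, with miR-5129-5p, 23 of 42 members had a value on all 4 arrays. The second run, which holds miR-5620-5p and miR-5621-5p, had 8 of 33, and the third run 3 of 21. The share never listed did not follow that order, with 12 of 42, 13 of 33 and 6 of 21. Of the third run 7 of 21 members were listed on 1 array and 4 on 2 arrays.

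**Figure D1:**
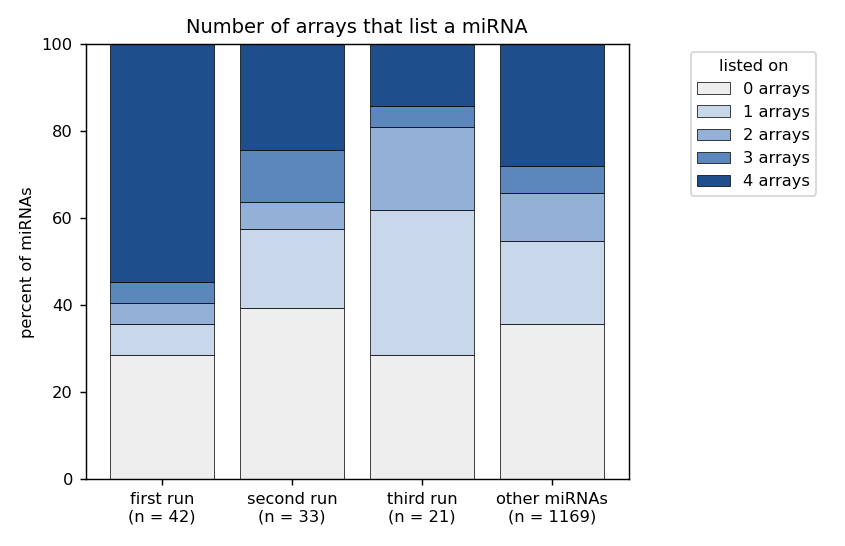
Percent of miRNAs (y axis) listed on 0, 1, 2, 3 or 4 arrays (shades) in the 3 accession runs of the block and among the 1169 other miRNAs. The darkest part, listed on all 4 arrays, holds 23 of 42 members in the first run, 8 of 33 in the second and 3 of 21 in the third.

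The members listed on only some arrays had low signals where they were listed. The 16 members on 1 array had signals of 7.1 to 20.8, the 8 on 2 arrays 8.9 to 17.5, and the 7 on 3 arrays 8.7 to 27.0. The highest of these, MIMAT0020632 in young mouse 1, was just above the median of 25 of the listed values, and every other value was below 25. Each of the 7 members on 3 arrays lacked a value for young mouse 2. Among other miRNAs this held for 46 of 73. Only MIMAT0022690 was listed on both arrays of one age and neither of the other, with signals of 14.8 and 14.2 in the aged mice. No member was listed for the 2 young mice alone. Among the other miRNAs, 27 were listed on both aged arrays alone and 14 on both young arrays alone.

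The 34 members with a value on all 4 arrays spanned a wide range of signal. The signal of a probe depends on the probe as well as on the RNA, so signals of different miRNAs are given as readings of the array and not as amounts. The geometric mean over the arrays ran from 12.4 for MIMAT0022930 to 39884 for MIMAT0020637, with a median of 112 over the 34 members and 48.5 over the 328 others. Of the 34, 15 were among the 91 brightest of the 362 miRNAs listed on all arrays, and 5 were among the 91 dimmest. On every array the median signal of the members was above that of the others. The log2 gap between these medians was 1.24 and 1.03 in young mice 1 and 2, and 1.28 and 1.23 in aged mice 1 and 2.

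**Figure D2:**
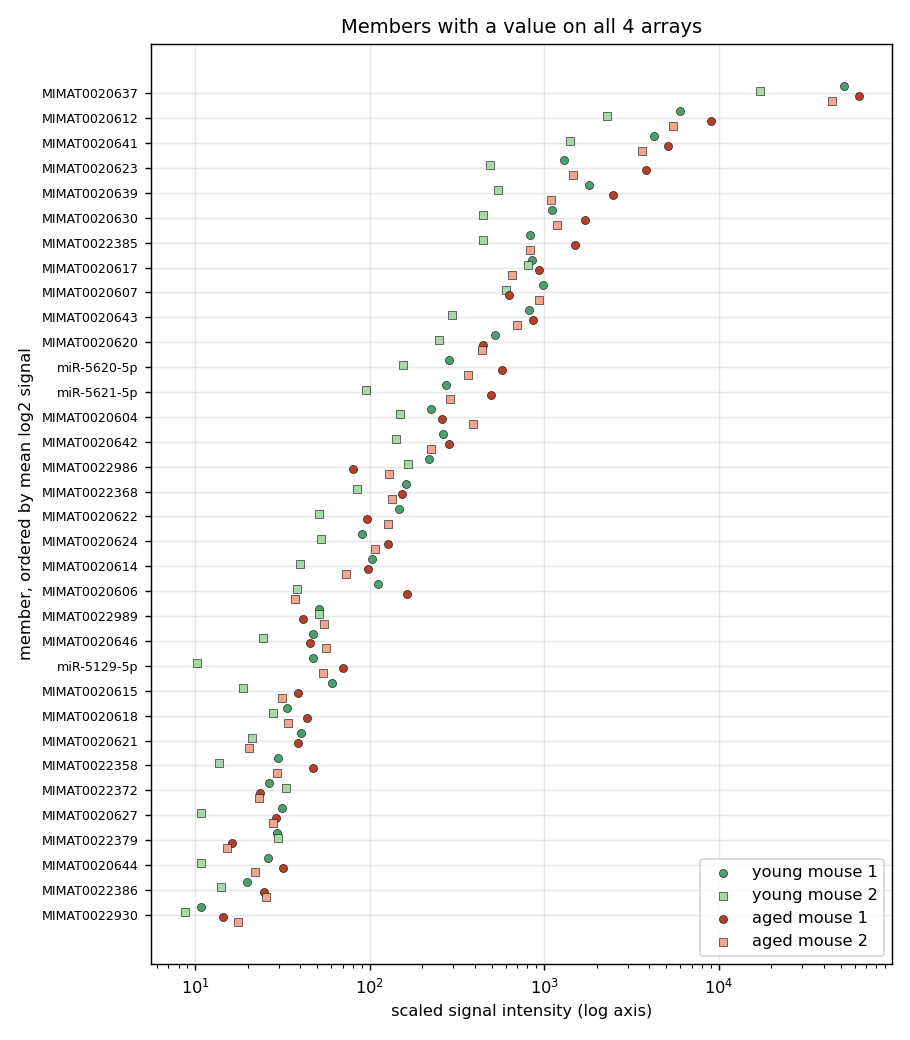
Scaled signal intensity (x axis, log scale) of the 34 members with a value on all 4 arrays (y axis, ordered by mean log2 signal), with 1 point per mouse, offset vertically. Young mouse 2 (light green squares) is the lowest of the 4 mice for 27 of the 34 members.

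The probe MIMAT0020637 was the brightest on every array. Young mice 1 and 2 read 52121 and 17166 at this probe, and aged mice 1 and 2 read 63408 and 44605. The value of aged mouse 2 lay between those of the young mice, so the ages overlapped. Its part of the summed signal was 15.7% and 11.9% in young mice 1 and 2, against 17.0% and 15.2% in aged mice 1 and 2. All members together took 22.0% and 18.1% in young mice 1 and 2, 24.8% and 21.7% in aged mice 1 and 2, and MIMAT0020637 was 66.0% to 71.3% of that. Without it, the other members took 6.99% to 7.47% of the remaining signal on young and 7.61% to 9.48% on aged arrays. Both aged arrays were above both young arrays in this last share, and all members together overlapped between the ages.

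**Figure D3:**
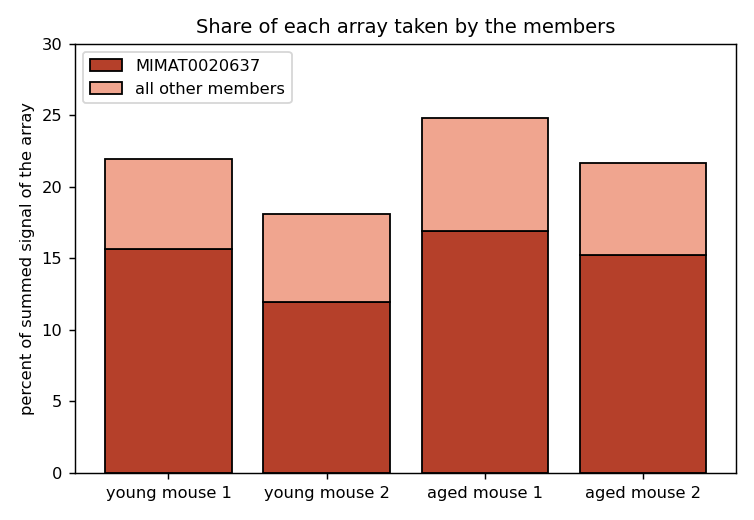
Percent of the summed signal of each array (y axis) taken by MIMAT0020637 (dark) and by all other members together (light), for the 4 mice (x axis). The members took between 18.1% (young mouse 2) and 24.8% (aged mouse 1).

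After MIMAT0020637, the brightest members were MIMAT0020612 and MIMAT0020641. MIMAT0020612 had signals of 5969 and 2282 in young plasma, 8984 and 5478 in aged plasma. For MIMAT0020641 they were 4250 and 1410, and 5109 and 3618. MIMAT0020639 followed the same order of mice, with 1814 and 542 in young and 2490 and 1095 in aged plasma. MIMAT0020643 did too, with 817 and 295 in young and 863 and 700 in aged plasma. For these 4 and for MIMAT0020637 the order was aged mouse 1, young mouse 1, aged mouse 2 and young mouse 2, so the ages overlapped. The order was the same in 8 of the 34 members and in 56 of the 328 others (17.1%).

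To ask whether the members differ with age, the 362 miRNAs listed on all 4 arrays were compared on the log2 scale with limma, as aged minus young, with Benjamini-Hochberg adjustment over the 362. The median difference was 0.60 over the 34 members and 0.31 over all 362. The fitted level was higher in aged plasma for 27 members (79.4%), against 68.0% of all miRNAs tested. At an adjusted p under 0.05 there were 0 members higher and 0 lower, against 0.276% of all miRNAs called in either direction, and the lowest adjusted p of a member was 0.53. At an unadjusted p under 0.05 there were 3 members higher and 0 lower, against 3.87% of all miRNAs higher and 2.21% lower. With 1 spread common to all miRNAs, each difference had a standard error of 0.60, close to the median difference of the members. Both aged mice lay above both young mice for 11 members (32.4%), against 19.9% of all miRNAs, and below them for 3 (8.82%), against 9.94%. A 2-group t test on the log2 values, with equal variances and no spread shared across miRNAs, called 0 members after adjustment. It is named the methods' test here, although the array methods of the study name no test. The median of the members moved with the scaling and with single mice. With each array rescaled to one median over the 362 miRNAs it was 0.33 over the members and 0.03 over all, and with quantile normalization 0.22 and 0.07. On the deposited scale, leaving out young mouse 2 put the median difference of the members at -0.022, and leaving out young mouse 1 put it at 1.09. Leaving out an aged mouse gave 0.49 (mouse 1) or 0.58 (mouse 2). Relative to the median of all miRNAs, that of the members was 0.29 higher with all 4 mice, and 0.12 higher without young mouse 2. Under other processing with all 4 mice it ran from 0.12 higher (pseudocount of 16) to 0.37 higher (filter on low signals).

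**Figure D4:**
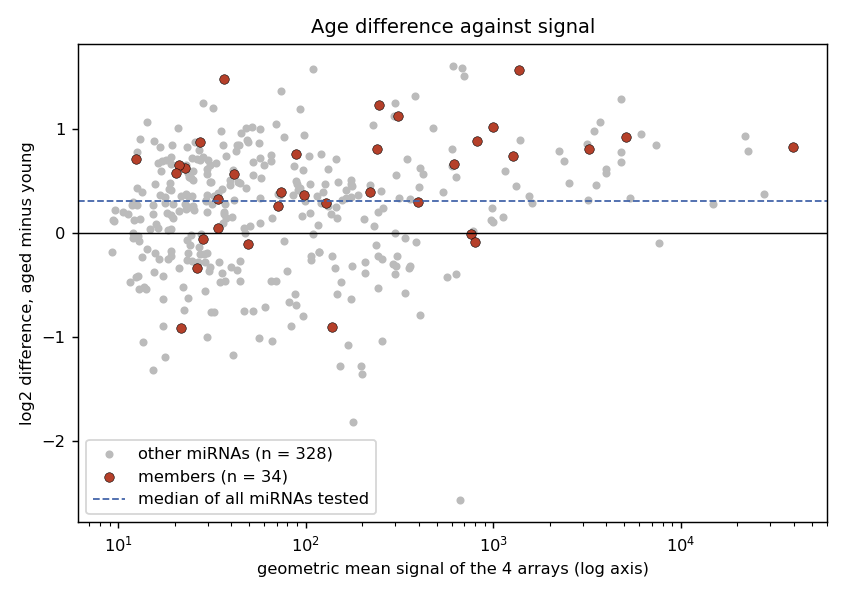
Log2 difference, aged minus young (y axis), against the geometric mean signal of the 4 arrays (x axis, log scale) for the 34 members (red) and the 328 other miRNAs (grey). The dashed line is the median of all 362, at 0.31, and 23 of the 34 members lie above it.

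At the upper end stood 4 members whose mean signal in aged plasma was at least 2 times that in young plasma, against 4.42% of all miRNAs. The first was MIMAT0020623. Its signal was 1298 and 486 in young mice 1 and 2, and 3811 and 1463 in aged mice 1 and 2, with both aged mice above both young mice. The mean was 892 ± 574 (SD) over the 2 young mice and 2637 ± 1660 (SD) over the 2 aged mice, a ratio of 2.96. The highest ratio among the 328 other miRNAs was also 2.96, and their highest log2 difference was 1.61. The log2 difference was 1.57 (limma, SE 0.60, adjusted p = 0.53), and the ratio was 2.94 in the mice numbered 1 and 3.01 in those numbered 2. Each mouse moved this value: leaving out a young mouse gave 2.28 (mouse 1) or 0.86 (mouse 2), and leaving out an aged one 0.88 (mouse 1) or 2.26 (mouse 2). With the rescaling to one median, the log2 difference of MIMAT0020623 was 1.30 (limma, adjusted p = 0.048), and with quantile normalization 0.94. Its adjusted p ran from 0.031 to 0.89 over the 9 limma fits that kept all 4 mice.

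The 3 named members made up the rest, and the study chose them for its list by their ratio on these same arrays. The signal of miR-5129-5p was 47.3 and 10.2 in young plasma, 70.2 and 53.8 in aged plasma. Both aged mice were above both young mice, and the value of 10.2 was close to the lowest signal listed for young mouse 2, 8.1. Its log2 difference was 1.48 (limma, SE 0.60, adjusted p = 0.61), with ratios of 1.48 in the mice numbered 1 and 5.27 in those numbered 2. Leaving out young mouse 1 gave a log2 difference of 2.59, leaving out young mouse 2 one of 0.38, and a pseudocount of 16 one of 0.93. For miR-5620-5p the signals were 283 and 154 in young and 573 and 364 in aged plasma, with no overlap. The log2 difference was 1.13 (limma, SE 0.60, adjusted p = 0.84), and the ratios were 2.03 and 2.36 in the mice numbered 1 and 2. With 1 mouse left out it ran from 0.69 (young mouse 2) to 1.57 (young mouse 1). The signals of miR-5621-5p were 272 and 94.5 in young and 497 and 287 in aged plasma, also without overlap, although young mouse 1 and aged mouse 2 were close. Its log2 difference was 1.23 (limma, SE 0.60, adjusted p = 0.80), with ratios of 1.83 and 3.03, and leaving out a young mouse gave 2.00 (mouse 1) or 0.47 (mouse 2).

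Below these, MIMAT0020630 was at 1099 and 444 in young and 1699 and 1182 in aged plasma. Its log2 difference was 1.02, with 0.37 (no young mouse 2) to 1.67 (no young mouse 1) when 1 mouse was left out, and the aged mice did not overlap the young ones. MIMAT0022385 was at 824 and 443 in young and 1499 and 830 in aged plasma. Here young mouse 1 and aged mouse 2 nearly coincided, and the log2 difference was 0.88, or 0.44 (no young mouse 2) to 1.33 (no young mouse 1). Quantile normalization put MIMAT0020630 at 0.46 and MIMAT0022385 at 0.29. Both aged mice also lay above both young mice for MIMAT0020604, MIMAT0020624, MIMAT0022930, MIMAT0022386 and MIMAT0020618, picked after their values were seen, with log2 differences of 0.33 (MIMAT0020618) to 0.81 (MIMAT0020604). For the 5 bright members with the order of MIMAT0020637 given above, the log2 differences were 0.83 for MIMAT0020637, 0.93 for MIMAT0020612, 0.81 for MIMAT0020641, 0.74 for MIMAT0020639 and 0.66 for MIMAT0020643. Their ratios were 1.06 to 1.51 in the mice numbered 1 and 2.02 to 2.60 in those numbered 2. Without young mouse 2 the differences fell to 0.03 for MIMAT0020637, 0.23 for MIMAT0020612 and 0.017 for MIMAT0020641, and turned to -0.14 for MIMAT0020639 and -0.07 for MIMAT0020643. With quantile normalization, which sets the brightest probe of every array to one value, MIMAT0020637 was at 0.00 by construction and the other 4 at 0.15 to 0.25.

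Of the 34 members, 7 had a fitted difference below 0, and none had a ratio of means at or under 0.5, against 3.59% of all miRNAs. MIMAT0022379 was at 29.5 and 29.9 in young plasma, 16.3 and 15.2 in aged plasma. Both aged mice were below both young mice, and the mice of each age were close to each other on the deposited scale. The mean was 29.7 ± 0.283 (SD) over the 2 young mice and 15.8 ± 0.778 (SD) over the 2 aged mice. The log2 difference came to -0.92 (limma, SE 0.60, adjusted p = 0.84). The young arrays differed in scale, so the small SD of the young mice holds only on that scale. With the rescaling to one median it was -1.19 (limma, adjusted p = 0.087), and with a pseudocount of 16 it was -0.53 (limma, adjusted p = 0.91). With 1 mouse left out it ran from -0.97 to -0.87.

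MIMAT0022986 was at 217 and 166 in young plasma, 80.3 and 129 in aged plasma, also with no overlap. Its log2 difference was -0.90 (limma, SE 0.60, adjusted p = 0.84), and the ratios were 0.37 in the mice numbered 1 and 0.78 in those numbered 2. Leaving out an aged mouse gave -0.56 (mouse 1) or -1.24 (mouse 2). MIMAT0022372 was at 26.4 and 33.2 in young and 23.6 and 23.3 in aged plasma, a log2 difference of -0.34, and -0.50 or -0.17 with young mouse 1 or 2 left out. These 3 were the members with both aged mice below both young mice. MIMAT0022989 was at 51.0 and 51.4 in young and 41.3 and 54.9 in aged plasma, and MIMAT0020617 at 851 and 805 in young and 929 and 654 in aged plasma, so that the aged values enclosed the young ones in both. Their log2 differences were -0.10 and -0.09. MIMAT0020607 was at 978 and 606 in young and 625 and 931 in aged plasma, with a log2 difference of -0.01. For MIMAT0022989, MIMAT0020617 and MIMAT0020607 the sign turned with 1 mouse left out, to 0.10 for the first of them (aged mouse 1 left out), 0.17 for the next (aged mouse 2 left out) and 0.33 or 0.27 for MIMAT0020607 (young mouse 1 or aged mouse 1 left out). The last of the 7 was MIMAT0020621, which lies outside the rule for named miRNAs and was picked after its values were seen, with -0.06.

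For most members at least 1 of the gaps between mice of one age was larger than the age difference. On the deposited scale, the median absolute log2 gap of the members was 1.01 between the 2 young mice and 0.45 between the 2 aged mice. Their median absolute age difference was 0.66. Over all 362 miRNAs these 3 medians were 0.87, 0.40 and 0.46. With its sign, the median of young mouse 2 minus young mouse 1 was -1.01 over the members and -0.87 over all. The young gap was thus largely an offset shared with the other miRNAs. The age difference was larger than both gaps for 8 of 34 members (23.5%), against 13.5% of all 362 miRNAs. Young mouse 2 had the lowest signal of the 4 mice for 27 members (79.4%), against 70.7% of all miRNAs. The 7 exceptions were MIMAT0022379, MIMAT0022986, MIMAT0022372, MIMAT0022989, MIMAT0020617, MIMAT0020621 and MIMAT0020606. The highest signal lay in aged mouse 1 for 18 members (52.9%), against 30.9% of all miRNAs, and in young mouse 1 for 9 members (26.5%), against 42.0%. In the first run aged mouse 1 was highest for 14 of 23 members.

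Set against the young mouse of the same number, both aged mice had a median difference of the members above 0, which was not tested. The median log2 difference was 0.24 in the mice numbered 1 and 1.02 in those numbered 2. Over all 362 miRNAs these medians were -0.12 and 0.75, so the gap between the numbers was of like size in both. Higher signals in both aged mice than in the young mouse of that number were found for 19 members (55.9%), against 37.8% of all miRNAs, and lower ones in both for 4 (11.8%), against 12.7%. The numbers 1 and 2 are called experiments in the study, and no source used here says that the arrays of one number were processed together.

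**Figure D5:**
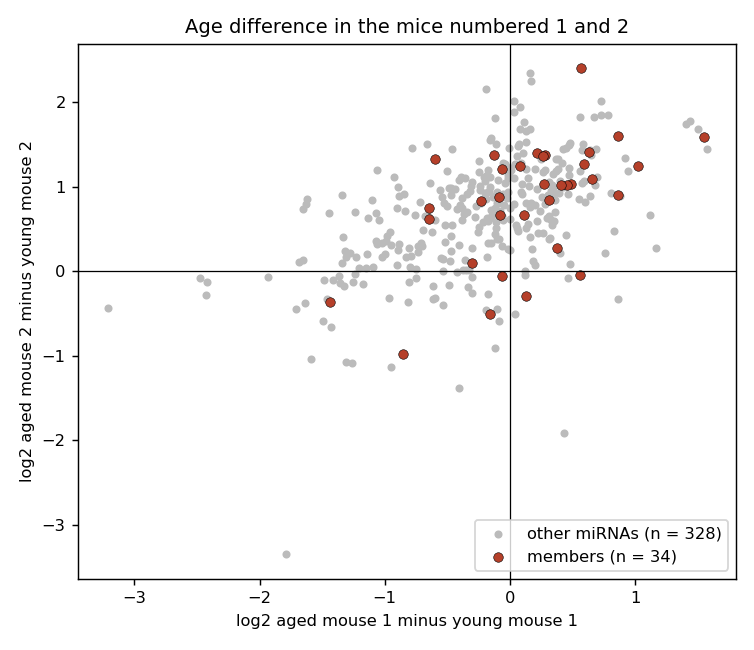
Log2 difference of aged mouse 1 minus young mouse 1 (x axis) and of aged mouse 2 minus young mouse 2 (y axis), 1 point per miRNA, for the 34 members (red) and the 328 others (grey). The members lie above 0 on both axes for 19 of 34, with medians of 0.24 and 1.02.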

How the data were processed

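Plasma RNA was extracted with a circulating RNA kit, labelled with Hy5 and hybridized to 1-colour arrays. The authors deposited linear signal intensity values, whose listed entries have a median of 25 on every array. How background was subtracted, by what method values were scaled and when a miRNA is listed is not stated in those sources that were read. A further 8 columns of intensities name no mouse and stayed out.

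The log2 of each value was used with no pseudocount. The 362 miRNAs listed on all 4 arrays were fitted with limma 3.58.1 in R 4.3.3 (lmFit, eBayes, 1 common spread, no block), with Benjamini-Hochberg adjustment at 0.05, and 34 members were read from that fit. The step was tested on simulated data. P-values of the main fit rest on 1 spread shared by all 362 miRNAs, taken from 2 mice per age. The prior degrees of freedom were infinite, so the own spread of a miRNA between its mice had no weight. An exact two-sided permutation test of 2 against 2 cannot go below 0.333, so none is given, and the number of arrays limits the precision. Ratios are of arithmetic means.

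The rule for members uses identifiers and no signal. It and the lists were set with earlier results of these data known. Named members were those past the threshold, those printed by the study, the 10 brightest, the 5 largest differences each way and those listed in one age only. The other arms and shared seeds of members without names were not analysed here. The 3 names rest on a match of 4 printed signals to 1 row. Sequences are from RefSeq, GRCm38.p6. Python 3.11.15 with pandas 2.3.3 and matplotlib 3.10.9 made the tables and figures. The alternatives were 3 scalings, a filter on low signals, blanks set to the lowest value, a pseudocount of 16, each mouse left out, a trended and robust variance, a replicate block and the methods' test.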

Additional observations from a re-analysis of the deposited data

How the results depend on the processing

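No member passed the threshold on the deposited scale. With equal medians of the shared miRNAs 1 member was called higher, and 2 were with equal medians of the 439 brightest miRNAs of each array. These were MIMAT0020623 in both, and miR-5129-5p in the second (adjusted p = 0.049 from limma). Of all 362 miRNAs, 0 were called higher and 1 lower on the deposited scale. With equal medians 4 were called higher and 12 lower, and with the brightest 6 higher and 12 lower. In each of these fits 0 members were called lower. The methods' test called 0 members and 0 of all 362 miRNAs after adjustment. With 1 mouse left out, the count of members called ran from 0 to 9. The 9 came without young mouse 1, where limma took the spread from the 2 aged mice alone and called 50 of all 362 miRNAs, 49 of them higher. The median difference of the members was -0.022 without young mouse 2 and up to 1.09 (without young mouse 1) in these fits, and from 0.22 to 0.74 with 2 mice per age. Equal medians took the median of all miRNAs from 0.31 to 0.03 and that of the members from 0.60 to 0.33. Members listed on at least 1 array numbered 65. On single arrays, over all members listed on each, the median log2 signal was 5.33 and 5.67 in young and 5.44 and 5.03 in aged plasma, against 6.81 over the 34 members, since the dimmer ones enter. Both aged mice lay above both young mice for 11 members on the deposited scale (19.9% of all miRNAs), 14 with equal medians (21.8%), 12 with quantile normalization (26.8%) and 17 with the brightest (28.5%). They lay below them for 3 members (9.94% of all miRNAs) on the deposited scale and for 2 in each of the other three (22.7%, 21.0% and 22.1%).

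With a replicate block 0 members were called and the median difference was 0.60, as without it. The deviations of same-numbered arrays had a correlation of 0.34 across all miRNAs and 0.45 across the members. With 2 pairs, neither value shows whether the numbers pair the mice. Of all miRNAs 1 was called with the block, as without it. The lowest adjusted p of a member was 0.31 with the block (limma), against 0.53 without it.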
